A study of Mus musculus with 180 samples.

Results

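Filgotinib and BMS-911543 are both JAK inhibitors, the first developed against JAK1 and the second against JAK2. Their effects on LPS-stimulated macrophages were compared directly, with the 3 Filgotinib samples set against the 3 BMS-911543 samples and no DMSO sample in the contrast. These 6 samples are part of a screen of 180 samples, in which primary bone marrow-derived macrophages of wild-type C57/BL6 mice received 1 of 58 clinical kinase inhibitors (CKIs) or the vehicle DMSO for 1 h, followed by LPS at 10 ng/ml for 2 h. All groups used here therefore carry LPS, and 6 DMSO samples, which the labels place in 2 sets of 3, give the level without an inhibitor. Each CKI was used at its own concentration, chosen in the study for a particular protein target, IRAK1 for Filgotinib and NQO2 for BMS-911543. The compound and its dose cannot be told apart, so the comparison is between these 2 treatments and not between the compounds at a matched dose. The values are exonic read counts that the authors scaled on invariant genes and rounded, called normalized values below. Of the 45070 genes in the table, the 12714 with a mean normalized value of 10 or more over all samples were tested.

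The direct comparison found 731 genes lower with Filgotinib, among them genes of the interferon response, and 382 genes higher. Of 83 interferon effector genes, 28 were lower and 0 higher with Filgotinib than with BMS-911543, against 5.75% and 3.0% of all genes. The count of 28 fell to 7 without BMS-911543 replicate 3. Of 14 STAT and IRF genes 8 were lower and of 15 MHC class I genes 6, and each count fell to 3 without BMS-911543 replicate 3. *Cd274*, *Cd40* and *Il27* were lower too, as was *Nos2*, a call lost without 5 of the libraries. Higher were 8 of 22 sterol and lipid synthesis genes, the kinases *Clk1* and *Clk4*, the phosphatases *Dusp1* and *Dusp4* and 5 of 32 cell cycle genes. Without BMS-911543 replicate 3, 7 sterol genes and 1 cell cycle gene were higher, against 6 and 1 without BMS-911543 replicate 1. *Ifnb1*, *Cxcl10*, *Tnf* and *Il6* were not called in either direction.

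JAK kinases sit on the cytoplasmic tails of cytokine receptors and phosphorylate STAT factors. In macrophages, LPS first induces the gene of interferon-beta through TLR4. The secreted interferon then binds its receptor, IFNAR, on the same cells, and JAK1 and TYK2 activate STAT factors, which with IRF9 switch on antiviral genes through the ISRE motif. STAT dimers bind another motif, called GAS.

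The label was checked against marker genes. All 9 macrophage markers (*Adgre1*, *Csf1r*, *Cd68*, *Lyz2*, *Itgam*, *Fcgr1*, *Mertk*, *Cd14*, *Spi1*) were detected, with summed normalized values from 127885 to 191737 in the 6 samples. The sums of the lists for other cells were far lower in these 6 samples. They lay between 3 and 14 for 5 T cell markers, 0 and 3 for 3 B cell markers, 0 and 2 for 2 NK cell markers, 0 and 6 for 4 erythroid markers and 35 and 86 for 4 dendritic cell markers. The 3 mast cell markers were at 0, the 4 fibroblast markers summed to 10 to 132 and the 7 neutrophil markers to 543 to 908. *Cd3d*, *Cd3g* and *Ncr1* were listed at 0 in all 6 samples, and of all these markers 1, *Spi1*, was called.

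The totals of the 6 samples were similar, with normalized values summing to 9722945 to 10720748, and the steps left in the low values by scaling and rounding correspond to an estimated 12550000 to 13860000 counted reads per sample. The share of mitochondrially encoded transcripts was 1.77%, 2.52% and 1.22% in Filgotinib replicates 1 to 3, 1.15%, 1.22% and 1.03% in the BMS-911543 replicates, and 0.76% to 1.95% with DMSO. All 17 mitochondrially encoded genes tested had a log2 fold change above 0, with a median of 0.72, and 0 of them were called. With this share and the replicate number both in the fit, 2028 genes were called, against 1751 with the replicate block alone.

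Filgotinib and BMS-911543 differed at 1113 of the 12714 genes (8.75%), of which 382 (3.0%) were higher and 731 (5.75%) were lower with Filgotinib. A gene was called a DEG at an adjusted p under 0.05 in limma fitted to the log2 of the normalized value plus 1 over all 180 samples, and fold changes are on that scale, which understates changes of low genes. The median size of the log2 fold change was 0.88 among the lower genes and 0.95 among the higher ones, and 469 of the 1113 DEGs differed by at least 1. The 3 Filgotinib values lay entirely beyond the 3 BMS-911543 values for 1036 DEGs, against 3204 (25.2%) of all genes tested. Over all genes tested, same-numbered samples of both treatments deviated together, but not in every gene. In *Dusp1* replicate 2 was the highest of both groups, while in *Mx1* replicate 3 was the lowest Filgotinib sample (489) and the highest BMS-911543 sample (2908). A fit that took the replicate number as a block called 1751 genes (13.8%), 684 higher (5.38%) and 1067 lower (8.39%). Single libraries weighed on these counts. Without BMS-911543 replicate 3 there were 626 DEGs, 207 higher and 419 lower. Without Filgotinib replicate 2 there were 680, of which 165 were higher, and without BMS-911543 replicate 1 there were 724, of which 163 were higher. Without Filgotinib replicate 3 the count of higher genes was 253.

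**Figure D1:**
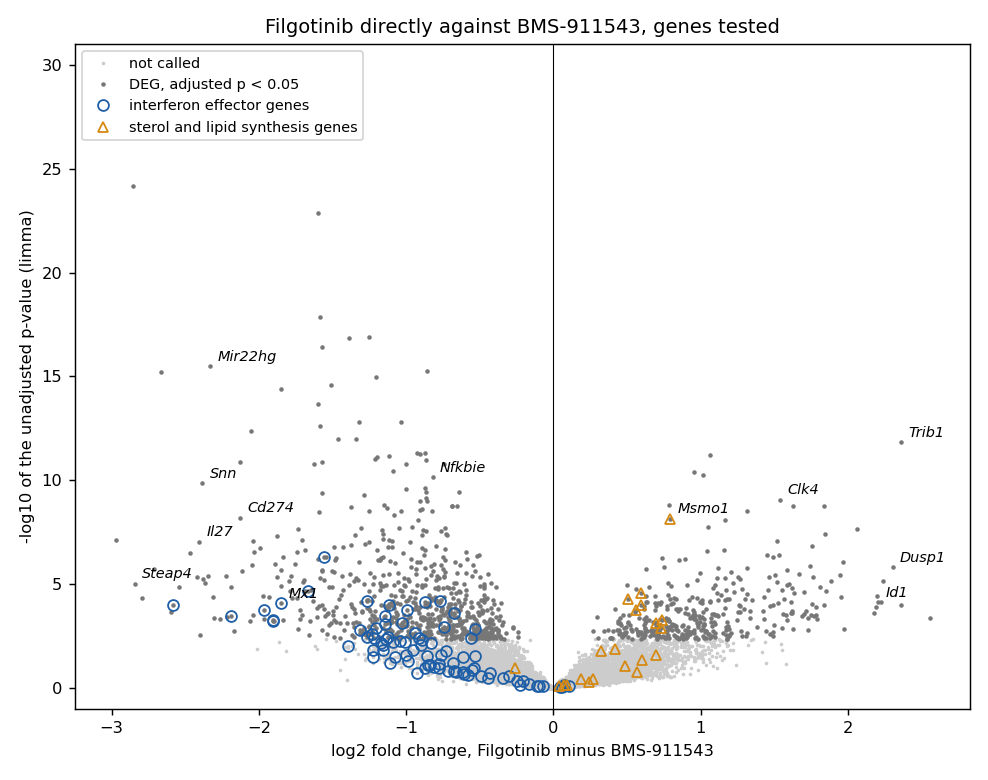
Log2 fold change of Filgotinib minus BMS-911543 (horizontal axis) against the unadjusted limma p-value on a −log10 scale (vertical axis) for the 12714 genes tested, each gene a point and the 1113 DEGs in dark grey. The interferon effector genes, circled in blue, lie mostly to the left of 0, and the sterol and lipid synthesis genes, orange triangles, mostly to the right.

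The position of both treatments relative to DMSO differed between the lower and the higher genes. Of the 731 genes lower with Filgotinib, 646 (88.4%) had a Filgotinib mean below the range of the 6 DMSO samples, and 588 (80.4%) had a BMS-911543 mean within it. Among all genes tested, the Filgotinib mean lay below the range at 19.3% and the BMS-911543 mean within it at 76.8%. Of the 382 genes higher with Filgotinib, 237 (62.0%) had a BMS-911543 mean below the DMSO range, against 13.0% of all genes, and 164 (42.9%) had a Filgotinib mean above it, against 16.4%. The genes were chosen on these same Filgotinib and BMS-911543 values, so the counts describe where the values lie and are not tested. The range pools the replicate numbers, and a mean within it is not shown to be unchanged. *Mx1* with DMSO was at 2252 and 3697 in replicate 1, 3587 and 2640 in replicate 2 and 936 and 1213 in replicate 3. With BMS-911543 it was at 2119, 2010 and 2908.

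The 15 largest differences toward lower values, among named genes at a mean of 50 or more with no overlap between the treatments, ran from *Steap4* to *Gbp6*. *Steap4*, a metalloreductase gene (chr5:7960472-7982213 in mm10), stood at 32, 24 and 20 with Filgotinib and at 238, 101 and 261 with BMS-911543, a log2 fold change of −2.84 ± 0.62 (SE, n = 3 against 3, adjusted p = 0.000507). With DMSO it lay between 124 and 215. *Tnfsf10*, which encodes the death receptor ligand TRAIL, was at 84, 37 and 48 against 292, 260 and 585 (−2.72 ± 0.54, adjusted p = 0.000142). In both genes every Filgotinib value was below every BMS-911543 and every DMSO value.

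*Il27* (chr7:126589009-126595022), a subunit of the cytokine IL-27, was at 1041, 708 and 860 with Filgotinib, at 4058, 3676 and 6329 with BMS-911543 and between 2190 and 5488 with DMSO. This was a log2 fold change of −2.40 ± 0.42 (adjusted p = 1.22e-05), and Filgotinib stood alone below the other groups. *Cd274* (chr19:29367438-29388095), the gene of the checkpoint ligand PD-L1, was at 654, 443 and 525 against 2439, 1842 and 2854 (−2.13 ± 0.34, adjusted p = 1.21e-06), and at 1811 to 3786 with DMSO. *Nos2*, the inducible nitric oxide synthase, was at 232, 126 and 192 against 659, 729 and 1748, with a log2 fold change of −2.40 ± 0.79 and an adjusted p of 0.037. The *Nos2* values did not overlap, but BMS-911543 replicate 3 was far above its fellows and the call was lost without it (adjusted p = 0.241), as it was without Filgotinib replicate 1, 2 or 3 (0.0552, 0.162 and 0.0777) or BMS-911543 replicate 1 (0.0538).

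*Snn*, which encodes stannin, and *Mir22hg*, the host transcript of a microRNA, did not vary alike among replicates. *Snn* was tight in both groups, at 23, 24 and 23 with Filgotinib and at 130, 115 and 134 with BMS-911543 (−2.38 ± 0.34, adjusted p = 4.68e-08). *Mir22hg*, with BMS-911543 replicate 3 well below its fellows, was at 130, 173 and 158 against 969, 873 and 545 (−2.33 ± 0.25, adjusted p = 5.88e-13). For both, the BMS-911543 values lay within the DMSO range, 92 to 235 and 478 to 1341.

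The other genes of this group were *Iigp1* (−2.59), *Cfb* (−2.31), *Batf2* (−2.27), *AW112010* (−2.22), *Trim30c* (−2.06), *Tmem67* (−2.04), *Calhm6* (−1.99) and *Gbp6* (−1.97), with adjusted p from 1.13e-05 to 0.0117. *Cfb* encodes complement factor B, *Batf2* a transcription factor of the AP-1 family induced by interferon, and *Iigp1* and *Gbp6* are interferon-induced GTPases. Of the 15 genes, 10 were called without any 1 library. Besides *Nos2*, the call of *Batf2* was lost without BMS-911543 replicate 1 (adjusted p = 0.0523) or Filgotinib replicate 3 (0.0876), that of *Trim30c* without the same libraries (0.0533 and 0.0762), and those of *AW112010* and *Gbp6* without BMS-911543 replicate 3 (0.094 and 0.0559). *Trim30c* belongs to a cluster of similar genes whose reads the counting could have split.

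**Figure D2:**
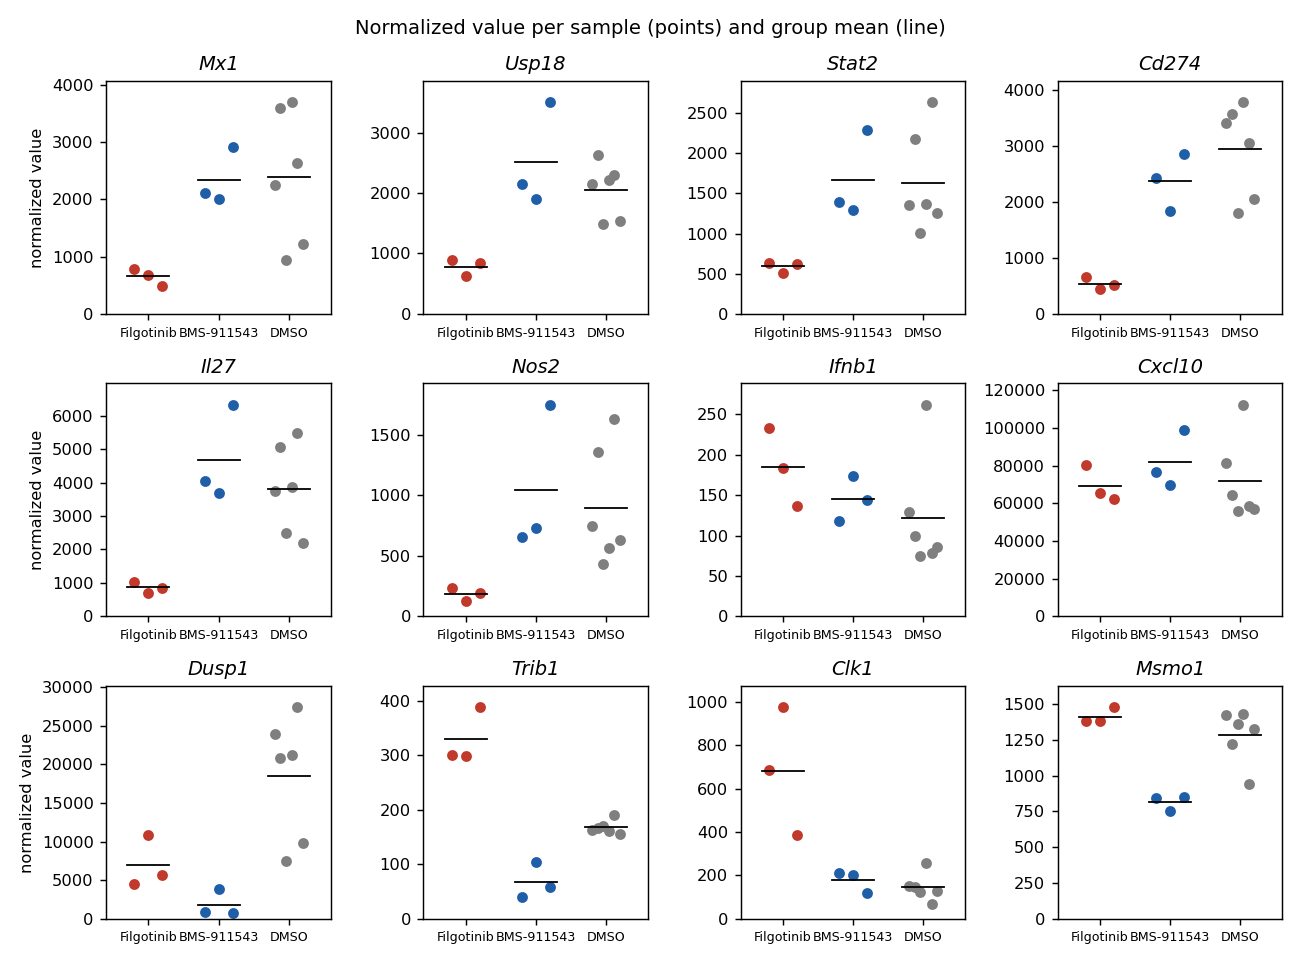
Normalized value of 12 genes in each Filgotinib (red, n = 3), BMS-911543 (blue, n = 3) and DMSO (grey, n = 6) sample, 1 point per sample and a line at the group mean, each panel with its own linear axis from 0. In the panels of *Mx1*, *Usp18*, *Stat2*, *Cd274*, *Il27* and *Nos2* the red points lie below all blue points, in those of *Ifnb1* and *Cxcl10* they overlap, and in those of *Dusp1*, *Trib1*, *Clk1* and *Msmo1* they lie above.

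The interferon pathway was followed from ligand to target. The ligand gene *Ifnb1* was at 233, 183 and 137 with Filgotinib and at 118, 174 and 144 with BMS-911543, a log2 fold change of 0.33 with a 95% interval from −0.59 to 1.24 (adjusted p = 0.811). The groups overlapped, and *Ifna1*, *Ifna2*, *Ifna4* and *Ifna5* did not reach the mean of 10 needed for the test. Of the receptor genes, *Ifnar1* (−0.27, adjusted p = 0.216) and *Ifnar2* (−0.11, adjusted p = 0.811) were not called.

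Of 18 genes of JAK kinases and cytokine receptors, 4 were lower and 0 were higher, against 5.75% and 3.0% of all genes, and with the replicate block 5 were lower and 1 was higher. *Tyk2*, a kinase of the interferon receptor, was at 393, 445 and 394 against 704, 708 and 707 (−0.78 ± 0.17, adjusted p = 0.000651). The values were tight in both groups and far apart. *Il10ra*, *Il4ra* and *Csf2rb2*, genes of cytokine receptor chains, had log2 fold changes of −0.67, −0.85 and −0.37. The calls of *Tyk2* and *Il10ra* held without any 1 library, whereas that of *Il4ra* was lost without 4 of the 6 libraries (highest adjusted p = 0.339, without Filgotinib replicate 2) and that of *Csf2rb2* without 5 (0.134, without BMS-911543 replicate 1). The kinases for which the compounds were developed were not called, with log2 fold changes of −0.05 (95% interval −0.42 to 0.32) for *Jak1* and −0.61 (−1.23 to 0.01) for *Jak2*, and neither was *Jak3* (−0.31).

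STAT and IRF factors carry the signal to the nucleus, and 8 of the 14 genes tested were lower, against 5.75% of all genes, while 0 were higher. *Stat2*, the STAT particular to type I and III interferon signaling, was at 639, 510 and 627 with Filgotinib and at 1393, 1297 and 2293 with BMS-911543 (−1.45 ± 0.34, adjusted p = 0.00132). The groups did not overlap, and BMS-911543 replicate 3 was the highest sample.

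*Stat3* (−0.58), *Stat5a* (−0.96), *Stat5b* (−0.71), *Irf1* (−0.65), *Irf3* (−0.81) and *Irf7* (−0.87) were lower too. *Irf9*, a DNA-binding partner of STAT2, was not called (−0.09, 95% interval −0.44 to 0.25), nor were *Stat6* (−0.07) and *Irf5* (−0.12). The calls of *Stat2* and *Irf3* held without any 1 library, but 3 genes of this list were lower without BMS-911543 replicate 3, 3 without Filgotinib replicate 2 and 5 without Filgotinib replicate 1. The calls of 5 others named here were lost without at least 1, the highest adjusted p being 0.177 for *Stat5b* without BMS-911543 replicate 3, 0.208 for *Stat5a* without it, 0.255 for *Irf1* and 0.0659 for *Stat3* without Filgotinib replicate 2, and 0.155 for *Irf7* without Filgotinib replicate 3.

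The effectors of the interferon response were drawn from 4 lists, the IFIT and MX group, the OAS family, nucleic acid sensors and the GBP and IRG GTPases. Of 83 genes tested, 28 (33.7%) were lower and 0 were higher with Filgotinib, against 5.75% lower among all genes. The median log2 fold change was −0.87, against 0.02 for all genes, and 79 of the 83 genes were below 0. The values of 63 genes were entirely lower with Filgotinib, with no overlap, against 1843 (14.5%) of all genes tested. With the replicate block 42 genes were lower, against 8.39% of all genes. Against DMSO, 31 of the 83 genes were lower with Filgotinib (all genes 14.6%) and 1 was lower with BMS-911543 (all genes 8.08%), with median log2 fold changes of −0.74 and 0.14.

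These counts depended on single libraries. Without BMS-911543 replicate 3 there were 7 lower effector genes, without Filgotinib replicate 2 there were 13, without Filgotinib replicate 3 there were 14, and without BMS-911543 replicate 1 there were 17. The 7 genes called without any 1 library were *Mx1*, *Herc6*, *Ddx60*, *Oas2*, *Tlr3*, *Ddx58* and *Iigp1*.

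*Mx1*, an antiviral GTPase, was at 784, 687 and 489 with Filgotinib, at 2119, 2010 and 2908 with BMS-911543 and between 936 and 3697 with DMSO. Its log2 fold change was −1.85 ± 0.45 (adjusted p = 0.00264), and every Filgotinib value lay below the other groups. *Herc6*, the enzyme that attaches ISG15 to proteins in the mouse, was at 253, 206 and 279 against 747, 490 and 1029 (−1.56 ± 0.29, adjusted p = 5.09e-05). *Tlr3*, the endosomal receptor for double-stranded RNA, was at 141, 147 and 97 against 416, 350 and 449 (−1.67 ± 0.38, adjusted p = 0.000902). *Ddx58*, the gene of the cytosolic RNA sensor RIG-I, was lower by a log2 fold change of −0.87, and *Oas2*, a synthetase of the RNase L activator, by −1.11.

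*Rsad2*, which encodes viperin, was at 15351, 11488 and 11473 against 26035, 23310 and 35760 (−1.14 ± 0.33, adjusted p = 0.0145), a call lost without BMS-911543 replicate 3 (0.133) or Filgotinib replicate 2 or 3 (0.0724 and 0.0635). The neighbouring gene *Cmpk2*, at 5491, 3896 and 6213 against 7577, 8121 and 17266, did not overlap but was not called (−0.999 ± 0.45, adjusted p = 0.17). *Isg15* was at 2993, 2799 and 1380 against 2297, 2825 and 2847, with overlap and a 95% interval from −1.40 to 0.95. *Ifit1* (−0.68, adjusted p = 0.483) was not called, *Ifit2* was lower (−1.22, adjusted p = 0.0449), and *Ifit3* (−1.17) was called with the replicate block (adjusted p = 0.0152) and not without it (0.0688). The *Ifit2* call was lost without 4 of the libraries (highest adjusted p = 0.195, without BMS-911543 replicate 3).

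The GBP and IRG GTPases, which attack the vacuoles of intracellular microbes, had the lowest median of the 4 lists, −1.11, with all 16 genes tested below 0. Of these, 6 were called, against 5.75% lower among all genes, namely *Gbp4*, *Gbp6*, *Gbp9*, *Iigp1*, *Tgtp1* and *Tgtp2*. With the replicate block 11 were lower, against 8.39% of all genes, and *Gbp2* was called (adjusted p = 0.0437, against 0.112 without the block). *Gbp4* was at 10, 6 and 8 against 29, 26 and 80, and its call and that of *Gbp9* were lost without BMS-911543 replicate 3 (adjusted p = 0.141 and 0.157). *Tgtp2* was at 375, 302 and 195 with Filgotinib, at 960, 994 and 1230 with BMS-911543 and between 509 and 2252 with DMSO (−1.91 ± 0.54, adjusted p = 0.0104), and *Tgtp1* had nearly the same log2 fold change, −1.90. These genes are close copies of each other, so their reads could have been split and they are uncertain as separate results. Both calls were lost without Filgotinib replicate 3 (adjusted p = 0.0813 for *Tgtp2* and 0.079 for *Tgtp1*) or BMS-911543 replicate 3 (0.0628 and 0.068).

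Promoters, 250 bases before to 50 bases after the annotated start (RefSeq, GRCm38.p6, the assembly of mm10), were taken for 8 DEGs of the effector, STAT and IRF, feedback, chemokine and MHC class I lists, in order of the size of the change among those with a matched entry. *Iigp1*, *Gbp4*, *Gbp6*, *Mx1*, *Usp18*, *Cxcl11*, *Nlrc5*, *Ccl5* and *Gbp9*, with larger changes than *Ifit3b* and *Ddx60*, were not analysed here. The windows were searched on both strands for GAAANNGAAA, the ISRE core, and TTCNNNGAA, the GAS core. Those of *Tgtp2* and *Tgtp1* are shown because each holds a GAS match directly before an ISRE match, printed in capitals. In *Tgtp2* (chr11:49064163-49064462, minus strand) the GAS match begins 81 bases and the ISRE match 70 bases before the start, and in *Tgtp1* (chr11:48992197-48992496, minus strand) 88 and 77 bases before it.
Tgtp2: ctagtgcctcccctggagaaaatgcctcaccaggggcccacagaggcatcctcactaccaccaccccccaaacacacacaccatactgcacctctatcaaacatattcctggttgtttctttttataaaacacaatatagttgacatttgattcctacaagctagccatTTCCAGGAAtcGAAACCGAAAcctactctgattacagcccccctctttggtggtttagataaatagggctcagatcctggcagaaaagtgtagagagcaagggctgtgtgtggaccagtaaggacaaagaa
Tgtp1: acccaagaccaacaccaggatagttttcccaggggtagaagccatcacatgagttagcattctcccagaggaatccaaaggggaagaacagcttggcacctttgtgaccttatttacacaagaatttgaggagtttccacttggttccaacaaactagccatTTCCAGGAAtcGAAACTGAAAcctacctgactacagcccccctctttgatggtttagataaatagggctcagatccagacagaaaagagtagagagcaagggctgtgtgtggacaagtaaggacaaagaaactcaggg
Of the other 6 windows, that of *Stat2* held 1 ISRE core, those of *Ifit3b* and *Ddx60* held 2 each, and those of *Herc6*, *Tap1* and *Tlr3* held neither core. The *Tlr3* window is set on a start 239 bases from the one in the gene table used here.

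Over all genes tested with a promoter in the table, 312 of 9131 (3.42%) held an ISRE core and 634 (6.94%) a GAS core. Among the genes lower with Filgotinib the ISRE core was in 38 of 579 promoters (6.56%) and the GAS core in 50 (8.64%), and among the genes higher with Filgotinib in 2 of 296 (0.676%) and 17 (5.74%). Within the effector genes the ISRE core was in 10 of 18 promoters of those lower with Filgotinib (55.6%) and in 28 of 48 of those not called (58.3%). A match describes the letters of the window and not a bound site.

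Chemokines induced by interferon draw T cells to the site of infection. Of 8 genes of CXCR3 ligands and late CC chemokines, 2 were lower, against 5.75% of all genes. These were *Cxcl11* (460, 356 and 371 against 1137, 1050 and 1515, −1.63 ± 0.39, adjusted p = 0.00221) and *Ccl5* (−1.35 ± 0.36, adjusted p = 0.00619). *Cxcl10* was not called, at 80083, 65409 and 62279 against 76709, 69615 and 98630 (−0.23, 95% interval −0.91 to 0.45). *Cxcl9*, at 70, 55 and 50 against 198, 150 and 443, did not overlap and was called with the replicate block alone (adjusted p = 0.0469, against 0.107 without it). The *Ccl5* call was lost without BMS-911543 replicate 3 (0.094).

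Of 15 MHC class I presentation genes, 6 were lower, against 5.75% of all genes, 0 were higher and all 15 had log2 fold changes below 0. Under the replicate block 10 were lower, against 8.39% of all genes. *Nlrc5*, the transactivator of class I genes, was at 85, 86 and 61 against 185, 212 and 305 (−1.57 ± 0.32, adjusted p = 0.000163). *Tap1*, a subunit of the peptide transporter, was at 1063, 872 and 983 against 2276, 2199 and 3173 (−1.37 ± 0.25, adjusted p = 1.68e-05). Filgotinib values stood below all BMS-911543 values in both genes. Without BMS-911543 replicate 3, 3 genes of the list were lower. *Tap2* (−0.62), the immunoproteasome subunit gene *Psmb9* (−0.66) and the heavy chain genes *H2-K1* (−0.51) and *H2-D1* (−0.42) were lower, while *B2m* was not called (−0.03). The calls of *Tap1*, *Nlrc5* and *Psmb9* held without any 1 library, and those of *Tap2*, *H2-K1* and *H2-D1* did not (highest adjusted p = 0.15, 0.0544 and 0.134, the first 2 without BMS-911543 replicate 3 and the last without Filgotinib replicate 2).

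Costimulatory and adhesion genes were lower for 4 of 7 tested, against 5.75% of all genes. *Cd40*, the receptor for T cell help, was at 2387, 2237 and 2341 with Filgotinib, at 6192, 6860 and 8102 with BMS-911543 and between 3941 and 5800 with DMSO (−1.59 ± 0.25, adjusted p = 7.04e-07). The 2 treatments lay on opposite sides of the DMSO range. *Vcam1* (−0.97), *Icam1* (−0.49) and *Cd274* were the others, and *Cd80* (−0.67, adjusted p = 0.414) and *Cd86* (−0.04) were not called. The *Icam1* call was lost without Filgotinib replicate 2 (adjusted p = 0.058) or BMS-911543 replicate 3 (0.0691).

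Of 16 genes that restrain JAK-STAT signaling, 1 was higher and 1 was lower, against 3.0% and 5.75% of all genes. *Usp18*, which limits IFNAR signaling and is itself induced by interferon, was at 890, 619 and 838 against 2142, 1904 and 3502 (−1.65 ± 0.37, adjusted p = 0.000866). *Pias4*, a SUMO ligase, was higher (1.00 ± 0.28, adjusted p = 0.00902), a call lost without BMS-911543 replicate 1 (0.253) or Filgotinib replicate 2 (0.0842). *Socs1*, an inhibitor of JAK kinases, was at 181, 314 and 258 with Filgotinib and at 85, 316 and 108 with BMS-911543, with overlap (0.77, 95% interval −0.49 to 2.04). Both groups lay below the DMSO samples, which ran from 618 to 5735, and the log2 fold changes against DMSO were −3.05 and −3.82. *Socs3* (0.15) and *Cish* (−0.17) were not called.

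*Ogfr* and *Irf8* also lay below all DMSO samples with both treatments. *Ogfr*, the opioid growth factor receptor, was at 134, 211 and 138 with Filgotinib and at 110, 155 and 165 with BMS-911543, against 474 to 1182 with DMSO, and the direct difference was 0.16 with a 95% interval from −0.71 to 1.02. *Irf8*, a factor of the myeloid lineage, was at 999, 1050 and 964 against 1515, 1754 and 2355 and at 3680 to 7541 with DMSO. The treatments did not overlap, but the direct difference was not called (−0.88 ± 0.35, adjusted p = 0.115). *Tnfaip3*, which encodes the NF-κB inhibitor A20, had log2 fold changes against DMSO of −0.83 and −0.75 and a direct difference of −0.08.

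NF-κB is the other main arm of the response to LPS. Of 17 NF-κB subunits and feedback genes, 2 were lower and 2 higher, against 5.75% and 3.0% of all genes. *Nfkbie* (2855, 2604 and 2891 against 4742, 4956 and 5042, −0.82 ± 0.12, adjusted p = 2.4e-08) and *Traf1* (−0.74) were lower. *Rel* (6463, 6188 and 6164 against 4214, 4138 and 3833, 0.63 ± 0.15, adjusted p = 0.00244) and *Nfkbiz* (0.57) were higher. *Nfkbia*, the main feedback inhibitor, was not called (0.21, adjusted p = 0.245). Of 17 inflammatory cytokines, *Il27* alone was called, against 8.75% of all genes, and 4 were lower with the replicate block, against 8.39%. *Tnf* was at 16843, 21124 and 12369 against 8778, 13276 and 13498 (0.49, adjusted p = 0.501), *Il6* at 338, 343 and 318 against 538, 448 and 945 (−0.87, adjusted p = 0.344), and *Il1b* (0.17), *Il10* (0.43) and *Il12b* (−0.56) were not called either. The *Traf1* call was lost without Filgotinib replicate 3 (0.182) or BMS-911543 replicate 2 (0.11) or 3 (0.105).

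Among 9 inflammatory enzymes 3 were lower, against 5.75% of all genes. *Hdc*, the histamine-forming decarboxylase (−1.71, adjusted p = 0.00704), and *Ptges*, a prostaglandin E synthase (−0.98, adjusted p = 0.0292), were lower with *Nos2*, and *Ptgs2* was not called (−0.22). The calls of *Hdc* and *Ptges* were lost without BMS-911543 replicate 3 (0.105 and 0.241), and that of *Ptges* also without Filgotinib replicate 1 or 2 (0.0996 and 0.281). Of 9 early chemokines 2 were higher, against 3.0% of all genes. *Ccl17* was at 33, 39 and 35 against 1, 7 and 14 (2.56 ± 0.71, adjusted p = 0.00921) and *Cxcl16* was higher by 0.34, and both calls were lost without BMS-911543 replicate 1 (0.213 and 0.381). That of *Cxcl16* was lost without Filgotinib replicate 1 or 3 or BMS-911543 replicate 3 as well (0.0718, 0.104 and 0.0918).

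**Figure D3:**
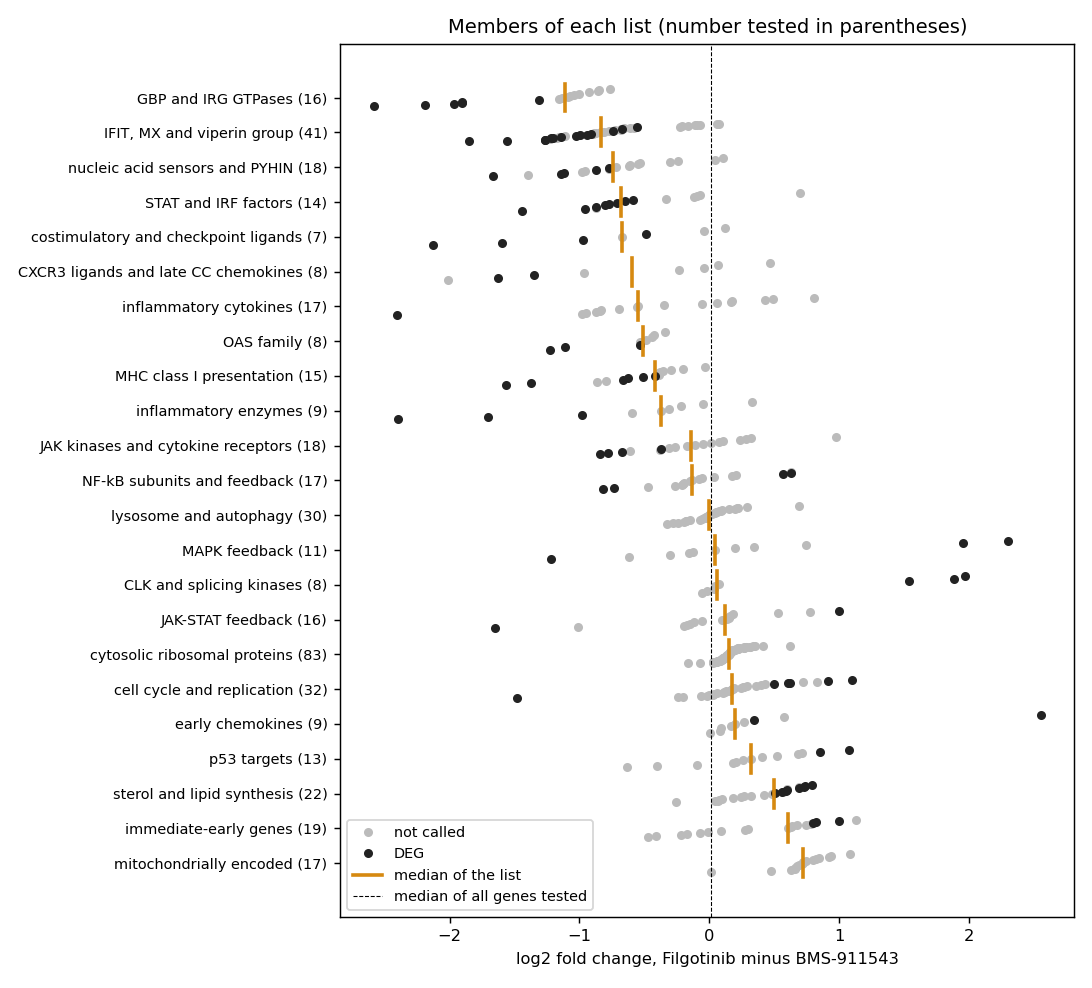
Log2 fold change of Filgotinib minus BMS-911543 (horizontal axis) for each tested member of 23 gene lists (rows, number tested in parentheses), with DEGs in black, other members in grey and the list median in orange. The GBP and IRG list has the lowest median, −1.11, and the mitochondrially encoded list the highest, 0.72, with 0 of its 17 genes called.

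The 15 largest differences toward higher values were led by *Trib1*, a pseudokinase that marks C/EBP factors for degradation (chr15:59648654-59657099). It was at 300, 299 and 388 with Filgotinib, at 40, 104 and 59 with BMS-911543 and between 155 and 191 with DMSO (2.36 ± 0.30, adjusted p = 9.4e-10). The treatments lay on opposite sides of DMSO, with log2 fold changes against it of 0.96 and −1.40. *Id1*, an inhibitor of basic helix-loop-helix factors, was at 212, 341 and 303 against 34, 88 and 71 and at 29 to 72 with DMSO (2.21 ± 0.54, adjusted p = 0.00247), a call lost without BMS-911543 replicate 1 (0.0527).

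*Dusp1* (chr17:26505591-26508472), the phosphatase that ends p38 and JNK signaling, was at 4552, 10789 and 5718 with Filgotinib, at 846, 3825 and 717 with BMS-911543 and at 7541 to 27409 with DMSO. Against DMSO its log2 fold changes were −1.35 with Filgotinib and −3.65 with BMS-911543. The direct log2 fold change was 2.31 ± 0.46 (adjusted p = 0.000124), and replicate 2 was the highest of both groups. *Dusp4*, an ERK phosphatase, showed the same order of replicates, at 317, 607 and 355 against 85, 202 and 67 (1.95 ± 0.46, adjusted p = 0.00159), with DMSO between 235 and 452. *Dusp14* was lower (−1.22, adjusted p = 0.016), and the other 8 of 11 MAPK feedback genes tested were not called. Of the 11, 2 were thus higher and 1 lower, against 3.0% and 5.75% of all genes. The *Dusp14* call was lost without Filgotinib replicate 2 (0.0756) or BMS-911543 replicate 1 or 3 (0.0501 and 0.0628).

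Of the other genes among these 15, *Zbtb11* (2.06), *Rcn2* (1.67) and *Fam83d* (1.64) were below DMSO with BMS-911543, whereas *Clk1* (1.89), *Zbtb1* (1.84), *Stil* (1.81), *Fbxo5* (1.79), *Ccnf* (1.76), *Zfp948* (1.75) and *Dtl* (1.69) were above DMSO with Filgotinib. The direction in each case is a call of that treatment against DMSO in the same fit, where 6.1% of all genes were higher with Filgotinib and 8.08% were lower with BMS-911543. *Phf13* (1.85) was called in neither comparison with DMSO, and its direct call was lost without BMS-911543 replicate 3 (0.0856). *Ccnf*, cyclin F, was at 563, 677 and 647 against 169, 275 and 136, with DMSO at 151 to 259, and *Rcn2*, a calcium-binding protein of the endoplasmic reticulum, at 344, 664 and 546 against 93, 317 and 130, with DMSO at 690 to 1696. *Rcn2* was also called lower than DMSO with Filgotinib (−0.98, adjusted p = 0.0109). Apart from *Id1* and *Phf13*, these 15 genes were called without any 1 library.

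**Figure D4:**
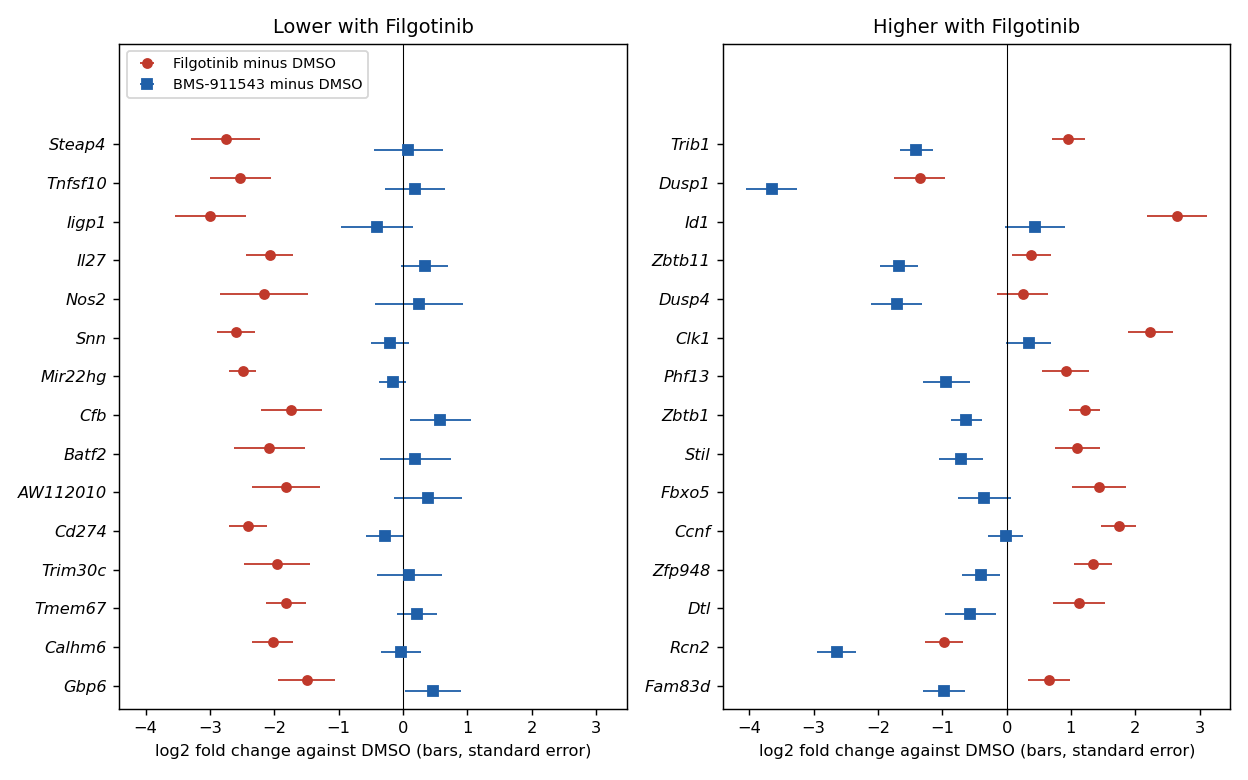
Log2 fold change against the 6 DMSO samples (horizontal axis, bars showing the standard error) of Filgotinib (red circles) and BMS-911543 (blue squares) for the 15 named genes with the largest differences in each direction. In the left panel all circles lie below 0, and the squares lie between −0.40 and 0.58. In the right panel the distance comes from circles above 0 (*Id1*, *Clk1*, *Ccnf*), squares below 0 (*Dusp1*, *Rcn2*) or both (*Trib1*). For *Dusp1* and *Rcn2* the circles lie below 0 too, at −1.35 and −0.98.

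*Clk1* and *Clk4*, kinases of the splicing factor regulatory system, were higher together with *Crebzf*, while the other 5 of the 8 genes in this list were not called. That made 3 of 8 higher, against 3.0% of all genes. *Clk4* was at 252, 309 and 254 with Filgotinib and at 118, 83 and 80 with BMS-911543 (1.54 ± 0.23, adjusted p = 2.4e-07). *Clk1* was at 687, 977 and 387 against 212, 201 and 119 (1.89 ± 0.40, adjusted p = 0.000403), and *Crebzf*, a bZIP factor, at 40, 59 and 49 against 11, 16 and 9 (1.97). With DMSO, *Clk1* lay between 67 and 259, *Clk4* between 53 and 109 and *Crebzf* between 7 and 21, so that BMS-911543 overlapped DMSO in all 3 genes and Filgotinib in none.

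Sterol synthesis, controlled by SREBP2, was the list with the largest number of higher genes apart from the numbered Zfp genes. Of 22 genes of sterol and lipid synthesis tested, 8 (36.4%) were higher and 0 lower, against 3.0% higher among all genes, with a median log2 fold change of 0.50. *Msmo1*, a sterol methyl oxidase, was at 1378, 1380 and 1478 with Filgotinib, at 844, 754 and 848 with BMS-911543 and between 944 and 1429 with DMSO (0.79 ± 0.13, adjusted p = 1.33e-06). All BMS-911543 values lay below the DMSO range, and the highest Filgotinib value lay above it. *Msmo1* was called lower than DMSO with BMS-911543 (−0.64) and was not called with Filgotinib (0.15). Against DMSO, 8 of the 22 genes were lower with BMS-911543, against 8.08% of all genes. With Filgotinib 3 were lower and 1 was higher, against 14.6% and 6.1% of all genes. The median log2 fold changes against DMSO were −0.31 with BMS-911543 and −0.01 with Filgotinib.

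*Hmgcs1*, an early synthase of the pathway, was higher by 0.59, *Cyp51* by 0.60, *Idi1* by 0.69, *Sqle* by 0.73 and *Insig1* by 0.74, with adjusted p from 0.0011 to 0.0218. *Insig1*, the sterol-sensing anchor of SREBP, was at 792, 1003 and 810 against 499, 630 and 438, and both were below DMSO (1411 to 1952). All 8 differences were under 1 on the log2 scale. The calls of *Insig1*, *Sqle* and *Idi1* were lost without at least 1 library, the highest adjusted p being 0.116 (without BMS-911543 replicate 3), 0.126 (without Filgotinib replicate 3) and 0.0775 (without Filgotinib replicate 2).

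Of 32 cell cycle genes, 5 were higher and 1 was lower, against 3.0% and 5.75% of all genes. The mitotic genes *Plk1* (0.62), *Aurka* (0.61) and *Tpx2* (0.50) and the cyclins *Ccna2* (0.92) and *Ccne2* (1.1) were higher, and *Ccnd2*, cyclin D2, was lower, at 453, 435 and 479 against 929, 1208 and 1845 (−1.48 ± 0.28, adjusted p = 6.53e-05). Without Filgotinib replicate 2 or 3 or BMS-911543 replicate 1 or 3, 1 gene of the list was higher in each case. *Ccna2* was at 1474, 1910 and 2159 against 831, 1136 and 957 and at 1598 to 3475 with DMSO. The calls of *Tpx2* and *Ccnd2* held without any 1 library, and those of *Plk1*, *Aurka*, *Ccna2* and *Ccne2* did not (highest adjusted p = 0.0945 and 0.185 without BMS-911543 replicate 3, 0.137 without BMS-911543 replicate 1, and 0.126 without Filgotinib replicate 2 or 3).

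Of 19 immediate-early genes 3 were higher, against 3.0% of all genes. *Junb* (0.80), *Ier2* (0.82) and *Ier5* (1.00) were higher, and each call was lost without BMS-911543 replicate 1 (adjusted p = 0.319, 0.178 and 0.0736). *Ier2* was also lost without BMS-911543 replicate 3 (0.217) or Filgotinib replicate 1, 2 or 3 (0.068, 0.143 and 0.0723), and *Junb* without BMS-911543 replicate 3 (0.0542) or Filgotinib replicate 2 or 3 (0.067 and 0.119). *Egr1* (0.63, adjusted p = 0.66) was not called, and *Fos* (−0.47) was called only with the replicate block (0.0496, against 0.0785). Of 13 p53 targets 2 were higher, against 3.0% of all genes. *Mdm2*, the ligase that degrades p53, was higher, at 2253, 2341 and 2196 against 1441, 1397 and 979 (0.85 ± 0.16, adjusted p = 6.15e-05), and so was *Bbc3*, which encodes PUMA (1.08, adjusted p = 0.0181). *Bbc3* is also the 1 call among 13 BCL2 family genes, against 8.75% of all genes. The *Bbc3* call was lost without 4 of the libraries (highest adjusted p = 0.194, without Filgotinib replicate 2).

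Of 23 macrophage identity genes, 1 was higher and 2 were lower, against 3.0% and 5.75% of all genes. *Spi1*, the gene of PU.1, was higher (0.67, adjusted p = 0.0334), while *Myd88* (−0.66, adjusted p = 0.000469), the adaptor of TLR4, and *Tlr2* (−0.41, adjusted p = 0.00609) were lower. *Csf1r* was at 28367, 26586 and 26595 against 29388, 27657 and 25951 and was not called (−0.02, 95% interval −0.15 to 0.10). The *Spi1* call was lost without BMS-911543 replicate 1 (0.47) or 3 (0.055) or Filgotinib replicate 2 (0.0507) or 3 (0.227).

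The genes of the proteins for which the doses had been set were not called, with log2 fold changes of 0.26 for *Irak1* and −0.08 for *Nqo2*. In a list of 11 target genes that holds both, *Tyk2* was the 1 gene called, against 8.75% of all genes, and *Stk10* (−0.10) was not. These are transcript levels and say nothing of the activity of the proteins.

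In other lists few genes or none were called, against 8.75% of all genes. There were 0 calls among 83 cytosolic ribosomal protein genes, 77 nuclear-encoded respiratory chain genes, 30 lysosome and autophagy genes, 15 NRF2 targets, 13 small nucleolar RNA hosts and 6 aryl hydrocarbon receptor targets, *Nqo1* (0.34) among them. With the replicate block 1 lysosome gene was lower and 1 higher, and 1 NRF2 target was higher. Of 17 ATF4 targets, *Slc3a2* was higher (0.49) and *Trib3* lower (−1.29), with 4 lower under the replicate block. The 1 gene lower of 22 in glycolysis and hypoxia was *Pfkfb3* (−0.98), of 12 FOXO-linked genes *Ccng2* (−0.77) and of 7 genes of cholesterol efflux and LXR *Nr1h2* (−0.45). The calls of *Slc3a2* (highest adjusted p = 0.27, without BMS-911543 replicate 1), *Trib3* (0.142, without Filgotinib replicate 1), *Pfkfb3* (0.235, without Filgotinib replicate 2) and *Ccng2* (0.079, without Filgotinib replicate 3) were lost, and that of *Nr1h2* held without any 1 library.

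Further lists stood beside 3.0% higher and 5.75% lower among all genes, and 5.38% and 8.39% with the replicate block. Of 38 proteasome subunits, *Psmb9* and *Psmd11* (−0.41) were lower, of 51 translation initiation factors *Eif5b* was higher (0.39), and of 240 numbered Zfp genes 9 were higher and 8 lower, against 18 and 13 with the replicate block. Their calls were lost without BMS-911543 replicate 3 for *Psmd11* (adjusted p = 0.385) and without BMS-911543 replicate 1 for *Eif5b* (0.362), among other libraries. The DEGs were more often protein-coding than the genes tested, 95.3% of the higher and 92.7% of the lower against 83.5%, and their median transcript length was 3381.5 and 3095 bases against 2807, values that are described and not tested.

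**Figure D5:**
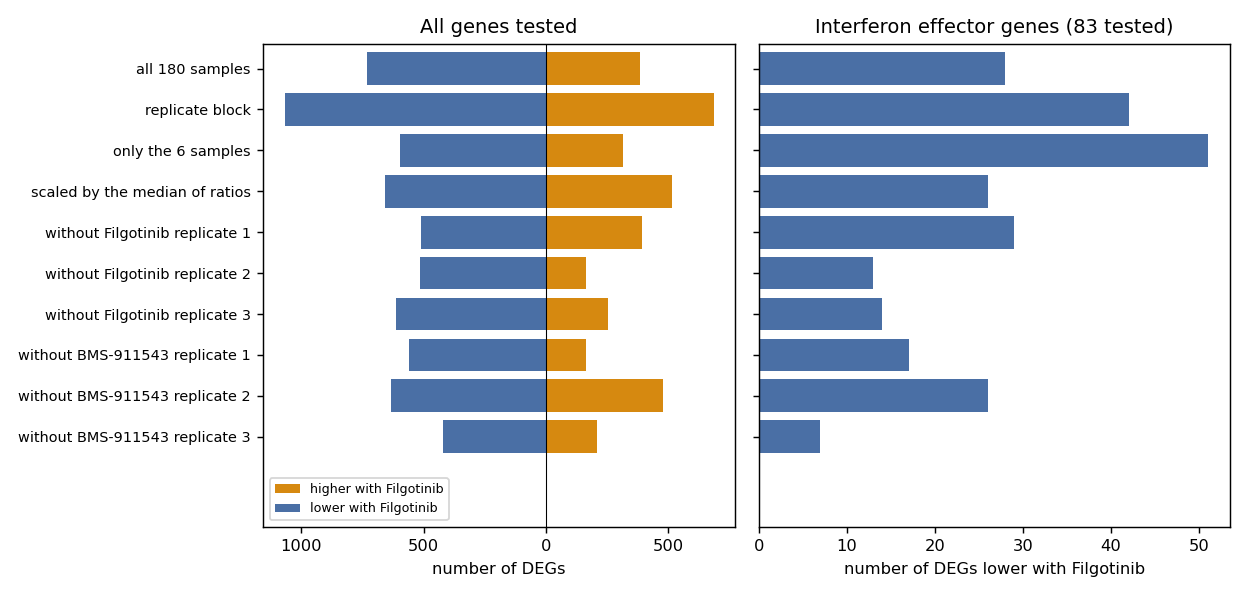
Number of DEGs of Filgotinib against BMS-911543 in the fit of all 180 samples, in 3 other fits and without each of the 6 libraries, for all genes (left, higher to the right and lower to the left of 0) and for the 83 interferon effector genes (right, lower genes). The lower genes outnumber the higher ones in every fit shown, and the smallest bars are those without BMS-911543 replicate 3, 626 DEGs and 7 effector genes.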

How the data were processed

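RNA was sequenced from 180 samples in 59 groups, with SMART-seq2 libraries and 3 samples per CKI, described in the methods as independent biological replicates, and 6 for DMSO. According to the methods and the submitters' processing notes, the authors aligned reads with TopHat2 2.1.1 to mm10, removed blacklisted regions with bedtools 2.29.2, counted reads on RefSeq exons and scaled the counts on invariant genes. The deposited values are whole numbers after this scaling and are treated as a score, not as raw counts, so no count model was used. Whether the counting used strand is not given in the sources used here, so reads of overlapping genes cannot be told apart, and reads of close paralogs could have been split.

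The deposited values were taken as log2 of the value plus 1. All 59 groups were fitted together with limma 3.58.1 in R 4.3.3 with a variance trend, and p-values were adjusted by Benjamini-Hochberg over the 12714 genes at a mean of 10 or more. Counts over lists were made with pandas 2.3.3 under Python 3.11.15. Intervals are at 95% and are not adjusted for the number of genes. Individually named genes are the 15 largest differences in each direction among DEGs without overlap at a mean of 50 or more, predicted models left out, and members of the gene lists. The members and lists were chosen with earlier results of these data known.

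The main fit did not pair the samples. Deviations from the group means over genes correlated at 0.288, 0.457 and 0.347 between same-numbered samples of the 2 treatments. For different numbers the correlations ran from −0.397 to 0.0224. The fit with the replicate number as a block was an alternative, with other pseudocounts, filters, scaling, sample sets and each library left out. Before use, the fit was run on simulated data in which same-numbered samples did not deviate together, unlike the real ones. It called 59 of 100 genes changed by 1 on the log2 scale and 93 of 100 changed by 2. Of 12514 unchanged genes it called 4. Depth was estimated from the spacing of the low values, at 12550000 to 13860000 reads in the 6 samples and 10440000 to 13560000 with DMSO. Some members of the lists are not reported here by name.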

Additional observations from a re-analysis of the deposited data

Results flagged for a closer look

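For 35 genes whose DMSO levels were given or used as background, the 6 DMSO samples were examined for a sample far from its fellows, taking the gap to the nearest sample over the whole range with a critical value of 0.625. Chance flags about 1 in 20 such groups, and 3 genes were flagged. The lowest DMSO sample of *Clk4* was at 53, with the nearest at 97 (gap over range 0.786). The highest DMSO sample of *Ifnb1* was at 262, with the nearest at 129 (0.711), and the highest of *Ccna2* was at 3475, with the nearest at 2175 (0.693). None of these samples enters the log2 fold change between Filgotinib and BMS-911543. As all samples share 1 fit, they do enter its standard error, interval and p-value.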

How the results depend on the processing

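The count of 1113 DEGs, 382 higher and 731 lower, stayed within 1.5 times under pseudocounts of 0.5 and 10 and without the variance trend. It did so too with no filter on low values and with a filter at a mean of 50 or on the 6 samples alone. The same held for a fit of these 6 samples. The genes called differed more than their number. Of the 1113 DEGs, 719 were called in the fit of the 6 samples and 854 with no filter on low values. Scaling by the median of ratios gave 515 higher and 656 lower, so that 44.0% of the DEGs were higher, against 34.3%, and moved the median of all genes from 0.016 to 0.046. The replicate block gave 1751 DEGs, 684 higher and 1067 lower, with all 1113 among them, and the pairing it rests on is a hint from the deviations of the samples. The block in a fit of the 6 samples alone gave 2549 (1192 higher, 1357 lower), and the block with the mitochondrial share 2028 (773 and 1255). A minimum log2 fold change of 1 in size left 469 (167 and 302). The 28 interferon effector genes that were lower became 51 in the fit of the 6 samples, 42 with the replicate block, 63 with the block in the 6 samples, 61 with the block and the mitochondrial share, and 19 at a size of at least 1. Leaving out 1 library or 1 replicate number gave 430 to 1112 DEGs, 102 to 479 higher, 328 to 633 lower and 1 to 29 effector genes. Without replicate 3 of both treatments, 0 STAT and IRF genes and 1 MHC class I gene were lower. Without replicate 2 of both treatments, 2 sterol genes were higher. Of 121 named genes called, 56 were called without any 1 library and 65 were not, 52 of them losing the call without BMS-911543 replicate 3. No named gene changed sign where it was called in the main fit or in the other setting. Uncalled named genes crossed 0 in 23 combinations of gene and setting. The block changed the calls named beside their genes. With 3 samples per treatment, a gene that was not called is not shown to be equal.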
